A study of Mus musculus with 6 samples.

Results

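The genes described here are 36 mouse genes of epithelial junctions, keratins and cell polarity. They were picked by name for what their products do, with earlier results of these data known. Their RNA was read in mouse induced pluripotent stem (iPS) cells during a rescue with human NAC1 (hNAC1). The 36 genes had 68 of the 45281 probes of the bead array, matched by current symbol or by an older synonym. A probe was kept if its signal stood above the negative controls of its array (detection p under 0.05) in clone 7 and in clone 5 alike on 1 day or more, which 44 of the 68 probes did, against 17471 of all probes. These 44 probes covered 29 of the 36 genes, and 12030 genes were tested in all. Keeping a probe because it was detected on 1 day favours genes that are high on that day, so the 29 genes are not the whole list.

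The cells were iPS cells null for Nac1, a mouse gene also named Nacc1 whose product is a transcriptional regulator with a BTB domain, and hNAC1 was put back into them, so that every group carries the null allele. Clone 7 and clone 5, each a single null line, were profiled on days 0, 2 and 5 of the rescue, and each clone gave 1 array a day, which makes n = 2 for a day. The vector and promoter behind hNAC1 are not given in the sources used here. Null cells kept without hNAC1 were not analysed here, so the effect of the rescue and that of days in culture cannot be told apart. On an array 16739 to 18150 probes were detected. All 8 of 8 markers of pluripotent cells, Pou5f1, Nanog and Sox2 among them, were detected on all 6 arrays. The mouse Nacc1 probe used, 1 of 3 that were kept, was detected on all 6 arrays of these cells labelled null, at 6.87 to 7.34 on the log2 scale. Its place relative to the deleted part of the gene is unknown here, so it does not check the null label.

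Epithelial cells are held together at their sides by a tight junction, an adherens junction and desmosomes, are braced inside by keratin filaments, and are polarised into an apical and a basolateral side. Mouse pluripotent stem cells grow as epithelial colonies with E-cadherin contacts, and reprogramming of fibroblasts passes through a gain of epithelial genes. Repressors of the ZEB and SNAI families bind E-box motifs of the letters CACCTG in promoters of epithelial genes, and grainyhead-like (GRHL) factors are known activators of such genes.

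The promoters of the genes are shown first because most of them share that motif. RefSeq promoters (GRCm38.p6, 250 bases before to 50 bases after the start of the transcript) were given for 23 of the 36 genes, with 30 promoters in all. The letters CACCTG, or CAGGTG on the other strand, occurred in a promoter of 18 of these 23 genes (78.26%), against 1717 of 8108 other genes tested on the array (21.18%) and 22.56% of all 27025 genes with a promoter. By promoter it was 22 of 30 (73.33%), against 20.21% of all 32851. The median GC content was 61.2% in promoters of the 36 genes and 60.7% in those of the other genes tested. The grainyhead-type motif AACCNGTT, or AACNGGTT on the other strand, occurred in 2 of the 23 genes, Cgn and Rab25, against 2.05% of the other genes tested. The 2 motifs did not overlap each other. A match is a description of the letters in this window and not a binding site. E-box below stands for the letters CACCTG on either strand, and other E-box letters were not searched. Of the genes that rose on day 5 against day 0, Cdh3 and Marveld3 had no promoter given and Cgn had no CACCTG. Printed below are the 250 bases before the start of Ap1m2, Crb3 and Spint2. With Pard3 these are the tested genes with 3 or more E-boxes there. Those of Cldn6, a claudin gene, and of Cgn follow. Cgn rose and has the grainyhead-type motif but not the letters CACCTG. Capitals mark the motifs, and each sequence runs 5′ to 3′ on the strand of its gene. Ap1m2 lies at chr9:21312334-21312583 on the minus strand, Crb3 at chr17:57061951-57062200 on the plus strand, Spint2 at chr7:29281978-29282227 on the minus strand, Cldn6 at chr17:23679115-23679364 on the plus strand and Cgn at chr3:94786483-94786732 on the minus strand.
Ap1m2: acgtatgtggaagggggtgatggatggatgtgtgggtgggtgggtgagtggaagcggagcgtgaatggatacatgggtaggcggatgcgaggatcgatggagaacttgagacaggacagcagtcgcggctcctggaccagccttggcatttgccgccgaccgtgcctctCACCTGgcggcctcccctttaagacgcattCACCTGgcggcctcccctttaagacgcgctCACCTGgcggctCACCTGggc
Crb3: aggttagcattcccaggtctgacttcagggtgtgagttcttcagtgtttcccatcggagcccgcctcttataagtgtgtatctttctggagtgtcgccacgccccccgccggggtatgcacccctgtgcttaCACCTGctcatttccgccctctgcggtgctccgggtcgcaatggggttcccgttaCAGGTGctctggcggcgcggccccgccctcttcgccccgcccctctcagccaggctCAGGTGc
Spint2: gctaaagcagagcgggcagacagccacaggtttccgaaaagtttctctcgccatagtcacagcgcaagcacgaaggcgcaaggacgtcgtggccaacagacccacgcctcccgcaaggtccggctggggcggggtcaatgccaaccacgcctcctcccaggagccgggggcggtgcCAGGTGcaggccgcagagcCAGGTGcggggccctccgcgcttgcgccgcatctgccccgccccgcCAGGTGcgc
Cldn6: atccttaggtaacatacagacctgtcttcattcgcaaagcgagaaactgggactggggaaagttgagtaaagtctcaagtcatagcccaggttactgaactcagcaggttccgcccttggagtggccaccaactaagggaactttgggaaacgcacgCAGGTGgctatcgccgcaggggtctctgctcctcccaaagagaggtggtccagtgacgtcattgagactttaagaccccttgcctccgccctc
Cgn: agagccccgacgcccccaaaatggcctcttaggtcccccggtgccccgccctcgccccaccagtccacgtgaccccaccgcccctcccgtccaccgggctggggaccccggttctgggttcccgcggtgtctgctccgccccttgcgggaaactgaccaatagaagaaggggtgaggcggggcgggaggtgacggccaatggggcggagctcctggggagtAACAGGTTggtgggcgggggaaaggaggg

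In Ap1m2 the 4 E-boxes lay within 81 bases before the start, and the last of them began 9 bases before it. The E-boxes farther from the start lie in a stretch that is repeated nearly letter for letter. Crb3 had 3 E-boxes before this start and 1 after it, Spint2 had 3 before it, and Cldn6 had 1 before and 1 after. The 14 tested genes with CACCTG had a median log2 change of 0.33 on day 5 against day 0, with 10 of them above 0. The 4 tested genes with a promoter but no CACCTG, Cgn, Ctnnd1, Spint1 and Tjp1, had a median of 0.03, with 2 above 0. With 4 genes on that side, these medians are given as values only.

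The comparison of day 5 with day 0 covers the whole of the rescue. Cdh3, which encodes P-cadherin, Cgn, which encodes the tight junction scaffold cingulin, and Marveld3, which encodes a transmembrane protein of tight junctions, rose 2.59-fold, 2.02-fold and 1.98-fold. They were 3 of the 29 genes tested, and 0 fell, by limma with Benjamini-Hochberg adjustment over all 12030 genes. Of all genes tested, 4.26% passed: 2.46% rose and 1.8% fell. The 29 genes had a median log2 change of 0.31, with 18 above 0 and 11 below, against a median of 0.00059 over all genes tested. The arrays of day 5 lay above both arrays of day 0 for 10 of the 29 genes (34.5%), against 25.1% of all genes tested. They lay below them for 4 (13.8%), against 23.6%. The list was not chosen independently of these data. The shares and medians set beside all genes, here and in the other comparisons, are therefore given as values only. A change in the share of cells that express a gene and a change in its RNA per cell cannot be told apart in these bulk samples.

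Cdh3 read 4.66 (clone 7) and 4.93 (clone 5) on day 0, 4.75 (clone 7) and 4.83 (clone 5) on day 2, and 6.06 (clone 7) and 6.29 (clone 5) on day 5, as normalised log2 signal. Its day 0 and day 2 arrays lay close together near the detection limit, and both day 5 arrays stood above them in each clone. The log2 change on day 5 against day 0 was 1.38 ± 0.17 (SE of the fit, limma adjusted p = 0.0121), with 1.39 in clone 7 and 1.36 in clone 5. Its probe passed detection on 1 of 2 arrays of day 0 and on both arrays of day 2. Of its other 3 probes 1 was kept only through the day 5 arrays, so its change was fixed by the filter and is not given, and 2 were detected on no array.

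Cgn read 4.83 (clone 7) and 5.17 (clone 5) on day 0, 5.21 (clone 7) and 5.19 (clone 5) on day 2, and 6.10 (clone 7) and 5.92 (clone 5) on day 5. Its values on day 5 exceeded those of the earlier days in both clones, more so in clone 7. The change on day 5 against day 0 was 1.01 ± 0.19 (SE, limma adjusted p = 0.0336). Of its other 3 probes 1 was likewise kept only through day 5, and 2 were detected on no array. Marveld3 read 4.75 (clone 7) and 4.66 (clone 5) on day 0, 5.26 (clone 7) and 5.59 (clone 5) on day 2, and 5.44 (clone 7) and 5.94 (clone 5) on day 5. It was already higher on day 2 than on day 0 in both clones, unlike Cdh3. The change on day 5 against day 0 was 0.99 ± 0.20 (SE, limma adjusted p = 0.0413), with detection on only 1 array of day 0.

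The size of these 3 changes depended on the processing. Without background correction Cdh3 was at 0.52, Cgn at 0.38 and Marveld3 at 0.33 on the log2 scale. The series values, normalised by the authors with software not given in the sources used here, gave 2.29, 1.63 and 1.85. None of these values passed the test (limma adjusted p from 0.0624 to 0.15). With an offset of 50 Cdh3 alone passed, at 0.78 (adjusted p = 0.0344), and without the detection filter none did (0.0901 to 0.152). Marveld3 also missed the threshold without clone in the model (limma adjusted p = 0.0809), with clone as a random block (0.0622) and without any 1 of the 6 arrays (0.0533 to 0.125), Cgn with the mean of its probes (0.80, adjusted p = 0.0516) and without the day 0 array or the day 5 array of clone 7 or either day 2 array (0.0666 to 0.151), and Cdh3 without the day 0 array of clone 7 (0.0503). The authors' deposited table of 698 probes held 4 of the 36 genes. Its log2 changes on day 5 against day 0 were 2.29 for Cdh3 (unadjusted p = 0.025), 1.85 for Marveld3 (0.041), 1.63 for Cgn (0.046) and 1.25 for Tjp3 (0.022). These equal the series values and are no independent measure. The Tjp3 value is that of its probe not used here, and the probe used was at 0.77 in the series values.

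**Figure D1:**
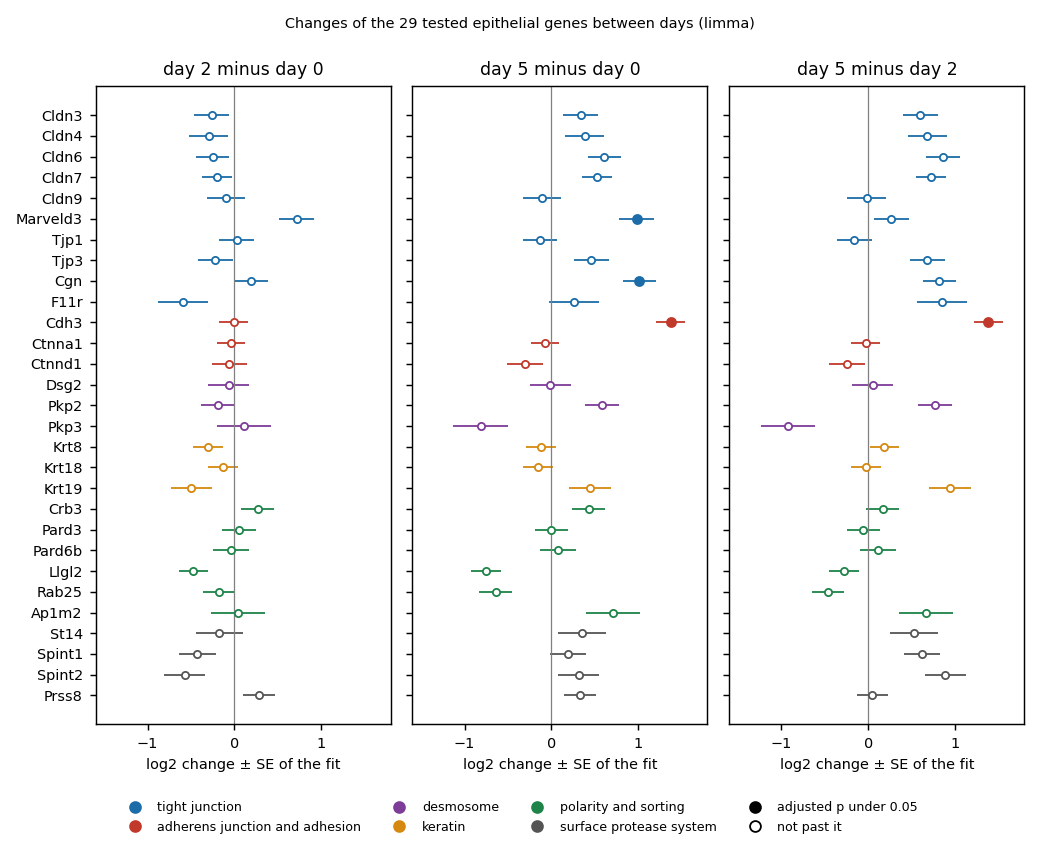
Log2 change ± SE of the fit (x axis) of each of the 29 tested epithelial genes (y axis, coloured by role) for day 2 against day 0, day 5 against day 0 and day 5 against day 2, fitted over 6 arrays, with filled points at an adjusted p under 0.05. Cdh3, Cgn and Marveld3 are filled for day 5 against day 0 and Cdh3 alone for day 5 against day 2, while no point is filled for day 2 against day 0.

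Among the tight junction genes, claudins form the paracellular seal. Cldn6 read 8.84 (clone 7) and 9.19 (clone 5) on day 0, 8.73 (clone 7) and 8.80 (clone 5) on day 2, and 9.73 (clone 7) and 9.53 (clone 5) on day 5. Both clones were lowest on day 2 and highest on day 5. The change was 0.61 ± 0.19 (SE, limma adjusted p = 0.128) on day 5 against day 0. Cldn7 was at 0.53 ± 0.17, Cldn4 at 0.39 ± 0.22 and Cldn3 at 0.34 ± 0.20 on day 5 against day 0, and these 4 claudins had adjusted p-values from 0.128 to 0.387. All 4 were below 0 on day 2 against day 0, with changes from -0.30 to -0.20. Cldn9, next to Cldn6 on chromosome 17, differed from it in course, with -0.11 on day 5 against day 0 and clones of opposite sign (0.28 in clone 7 and -0.50 in clone 5).

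The junction scaffolds differed from each other in value. Tjp3, which encodes ZO-3, was at 0.46 ± 0.20 on day 5 against day 0 by the probe used and at 0.74 by its other probe. Tjp1, which encodes ZO-1, was at -0.13 ± 0.20. F11r, which encodes the junctional adhesion molecule JAM-A, read 5.79 (clone 7) and 6.91 (clone 5) on day 0, 5.70 (clone 7) and 5.82 (clone 5) on day 2, and 6.64 (clone 7) and 6.58 (clone 5) on day 5. The day 0 array of clone 5 was the highest of the 6, so the difference of day 5 from day 0 was 0.86 in clone 7 and -0.34 in clone 5. Ocln, which encodes occludin, had 1 probe that was detected on 1 day 5 array, and Marveld2, which encodes tricellulin, had 1 probe detected on no array, so neither was tested.

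At the adherens junction, catenins bind cadherins and link them to the cytoskeleton. Ctnna1, which encodes alpha-catenin, read 11.96 (clone 7) and 12.03 (clone 5) on day 0, 11.95 (clone 7) and 11.95 (clone 5) on day 2, and 11.92 (clone 7) and 11.93 (clone 5) on day 5. All 6 arrays lay within a narrow band, with a change of -0.07 ± 0.16 on day 5 against day 0. Ctnnd1, which encodes p120-catenin, read 7.64 (clone 7) and 7.56 (clone 5) on day 0, 7.52 (clone 7) and 7.56 (clone 5) on day 2, and 7.58 (clone 7) and 7.01 (clone 5) on day 5. The day 5 array of clone 5 stood below the other 5, and the change was -0.30 ± 0.20 (SE, limma adjusted p = 0.451). Epcam, which encodes an adhesion molecule of epithelial and pluripotent cells, had 1 probe, listed under its older name Tacstd1, and it was detected on no array. Cdh1, which encodes E-cadherin and is not among the 36 genes, was at 0.20 ± 0.19 on day 5 against day 0 and at -0.77 ± 0.19 on day 2 against day 0, and Zeb1, a repressor of epithelial genes, at -0.99 ± 0.27 and 0.04 ± 0.27, none of which passed.

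**Figure D2:**
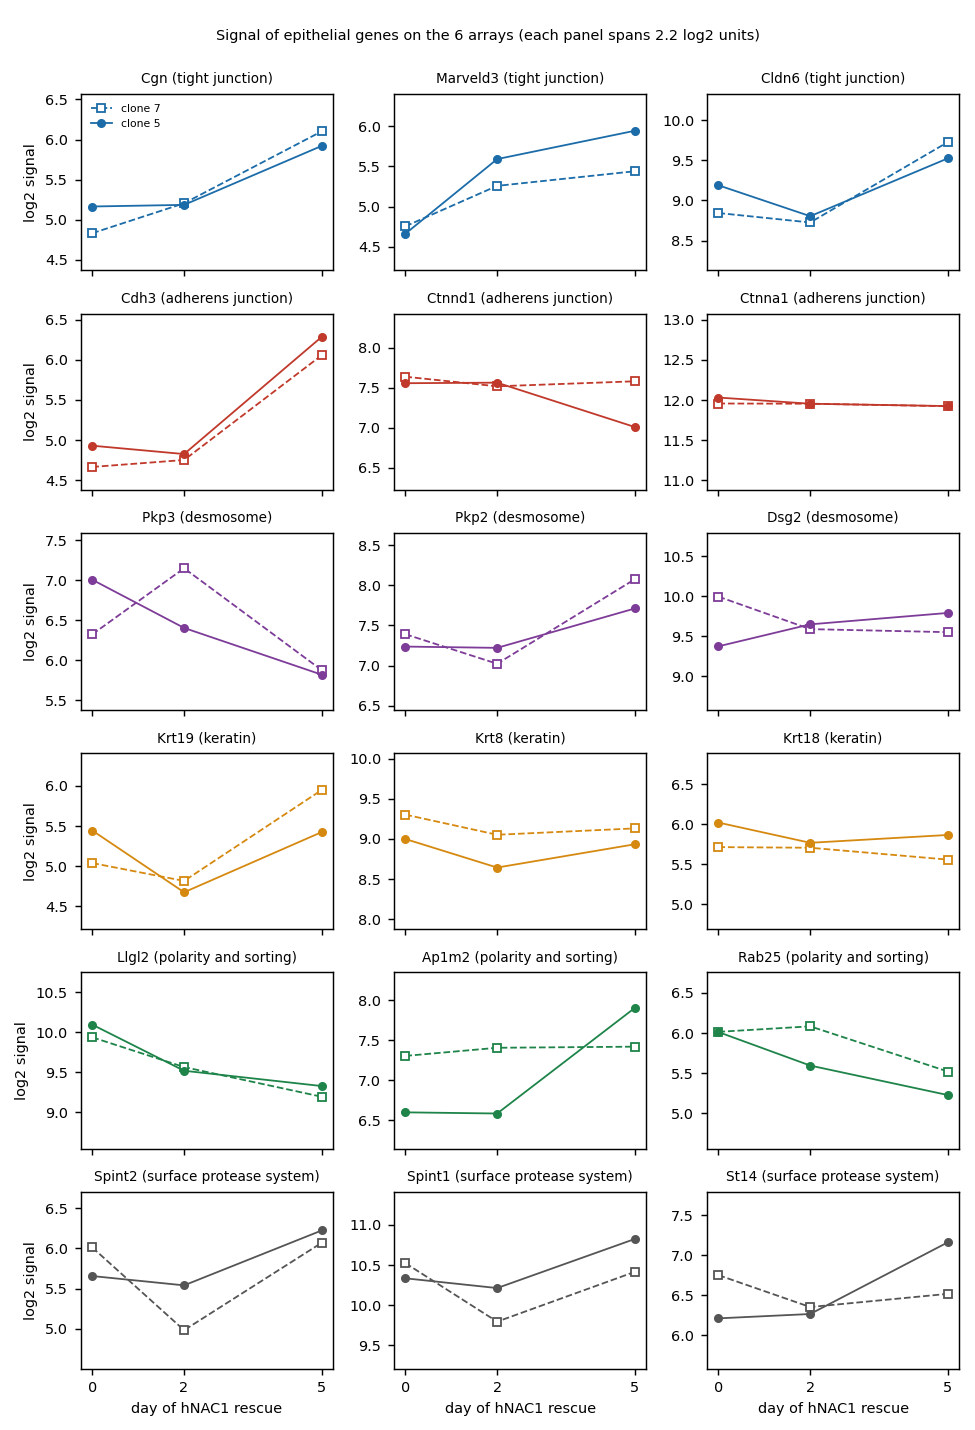
Normalised log2 signal (y axis, every panel of equal span) on days 0, 2 and 5 (x axis) in clone 7 (open squares, dashed) and clone 5 (filled circles) for the 3 genes of each role with the largest change between days. Cdh3 and Cgn are highest on day 5 in both clones, Llgl2 is lowest on day 5 in both, and Cldn6, Krt19 and Spint2 are lowest on day 2 in both.

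The desmosome genes differed in sign. Pkp2, which encodes plakophilin 2, read 7.39 (clone 7) and 7.24 (clone 5) on day 0, 7.02 (clone 7) and 7.22 (clone 5) on day 2, and 8.08 (clone 7) and 7.71 (clone 5) on day 5. Day 5 was the highest day in both clones, with a change of 0.58 ± 0.19 (SE, limma adjusted p = 0.147) against day 0, and its other 2 detected probes were at 0.50 and 0.75. Pkp3, which encodes plakophilin 3, read 6.32 (clone 7) and 7.01 (clone 5) on day 0, 7.15 (clone 7) and 6.40 (clone 5) on day 2, and 5.88 (clone 7) and 5.82 (clone 5) on day 5. Day 5 was its lowest day in both clones, with a change of -0.82 ± 0.31 (SE, limma adjusted p = 0.19). Dsg2, which encodes the cadherin desmoglein 2, read 10.00 (clone 7) and 9.38 (clone 5) on day 0, 9.59 (clone 7) and 9.65 (clone 5) on day 2, and 9.55 (clone 7) and 9.79 (clone 5) on day 5. Its clones were of opposite sign and the groups of arrays overlapped, with a change of -0.01 by the probe used and of -0.57, -0.46 and -0.14 by the other 3 probes.

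No other desmosome gene was measured on both arrays of a day. Dsp, which encodes desmoplakin, the link from desmosomes to keratin, had 3 probes, 1 of them detected on 2 arrays. Dsc2, which encodes desmocollin 2, Jup, which encodes plakoglobin, and Perp, which encodes a membrane protein of desmosomes and a known p53 target, had 1 probe each that was detected on no array. A probe below detection sets no level for these genes.

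Keratins 8 and 18 pair into the filaments of simple epithelia. Krt8 read 9.30 (clone 7) and 9.00 (clone 5) on day 0, 9.05 (clone 7) and 8.64 (clone 5) on day 2, and 9.13 (clone 7) and 8.93 (clone 5) on day 5. Krt18 read 5.71 (clone 7) and 6.02 (clone 5) on day 0, 5.71 (clone 7) and 5.77 (clone 5) on day 2, and 5.56 (clone 7) and 5.87 (clone 5) on day 5. Neither gene had days that stood apart, and they were at -0.12 ± 0.17 and -0.16 ± 0.17 on day 5 against day 0. Krt19, another keratin of simple epithelia, read 5.04 (clone 7) and 5.44 (clone 5) on day 0, 4.82 (clone 7) and 4.67 (clone 5) on day 2, and 5.95 (clone 7) and 5.42 (clone 5) on day 5. Day 2 was the lowest day in both clones, and the change was 0.45 ± 0.24 (SE, limma adjusted p = 0.337) on day 5 against day 0. These keratins are also known from trophectoderm and extraembryonic endoderm. Of 7 trophectoderm markers 1 was detected, Tfap2a, and Cdx2, Eomes and Elf5 were not. The linear signal of Tfap2a was 29.3 to 30.2 on day 0, 26.8 to 28.0 on day 2 and 24.0 to 33.4 on day 5. These readings lay near the detection limit. Linear signals and their sums, here and for the marker lists below, include the added offset of 16 for each gene. Of 12 primitive and visceral endoderm markers 3 were detected, with a summed signal of 492 to 831 on day 0, 529 to 745 on day 2 and 950 to 1068 on day 5. Among them Gata6 was below detection on both day 0 arrays and was kept only through the day 5 arrays, so its change is not given. Gata4 and Sox17 were not detected, and the part of such cells in the keratin values was not tested.

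In the polarity and sorting group, Llgl2, which encodes a basolateral polarity protein, read 9.94 (clone 7) and 10.09 (clone 5) on day 0, 9.56 (clone 7) and 9.52 (clone 5) on day 2, and 9.19 (clone 7) and 9.33 (clone 5) on day 5. It was lower on each later day in both clones, with -0.74 in clone 7 and -0.77 in clone 5 on day 5. The change was -0.75 ± 0.17 (SE) and missed the threshold (limma adjusted p = 0.0566). It passed with an offset of 50 (0.0406) and with trended and robust shrinkage (0.029). Rab25, which encodes a GTPase of apical recycling endosomes, read 6.01 (clone 7) and 6.01 (clone 5) on day 0, 6.08 (clone 7) and 5.59 (clone 5) on day 2, and 5.52 (clone 7) and 5.23 (clone 5) on day 5. Day 5 was its lowest day in both clones, with a change of -0.64 ± 0.19 (SE, limma adjusted p = 0.11), but its other probe, detected on 4 arrays, was at -0.03.

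Ap1m2, which encodes the epithelial mu subunit of the AP-1 adaptor that sorts proteins to the basolateral membrane, read 7.30 (clone 7) and 6.60 (clone 5) on day 0, 7.41 (clone 7) and 6.59 (clone 5) on day 2, and 7.42 (clone 7) and 7.90 (clone 5) on day 5. Clone 5 was higher on day 5 than on day 0 by 1.30, while clone 7, the higher clone on day 0, differed by 0.12. The change over both was 0.71 ± 0.31 (SE, limma adjusted p = 0.25), and the other 3 probes gave 0.56 to 0.75. Without the day 5 array of clone 7 it passed, at 1.33 (limma adjusted p = 0.0311). Crb3, which encodes the apical determinant Crumbs 3, was at 0.43 ± 0.19. Pard6b and Pard3, genes of the apical PAR complex, gave 0.08 ± 0.21 for Pard6b and a value near 0 (SE 0.19) for Pard3, which was detected on 4 arrays.

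The last group is a protease system of the epithelial surface. St14 encodes matriptase, Prss8 encodes prostasin, and Spint1 and Spint2 encode the inhibitors HAI-1 and HAI-2. Spint2 read 6.01 (clone 7) and 5.66 (clone 5) on day 0, 4.98 (clone 7) and 5.54 (clone 5) on day 2, and 6.07 (clone 7) and 6.22 (clone 5) on day 5. Spint1 read 10.52 (clone 7) and 10.34 (clone 5) on day 0, 9.79 (clone 7) and 10.21 (clone 5) on day 2, and 10.42 (clone 7) and 10.83 (clone 5) on day 5. Both inhibitor genes were lowest on day 2 in both clones, more so in clone 7, with changes on day 5 against day 0 of 0.31 ± 0.24 and 0.19 ± 0.21. St14 read 6.75 (clone 7) and 6.21 (clone 5) on day 0, 6.35 (clone 7) and 6.27 (clone 5) on day 2, and 6.52 (clone 7) and 7.16 (clone 5) on day 5. It was highest on day 5 in clone 5, with a change of 0.95 there and of -0.23 in clone 7, and its other detected probe was at 0.06. Prss8 was at 0.33 ± 0.18.

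**Figure D3:**
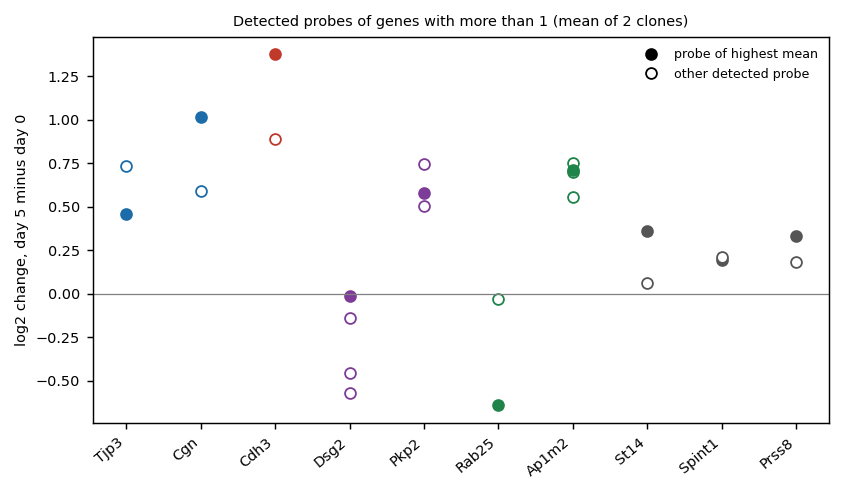
Log2 change on day 5 against day 0 (y axis, mean of both clones) of every detected probe of the 10 genes with more than 1, filled for the probe of highest mean. Probes of Pkp2, Ap1m2 and Tjp3 lie above 0, as do those of Cdh3 and Cgn, of which 1 each was kept only through day 5, those of Dsg2 at or below 0, and the probes of Rab25 are far apart at -0.64 and -0.03.

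The comparison of day 2 with day 0 covers the start of the rescue, and none of the 29 genes passed limma's test (0 of 12030 genes passed, 0%, with 1630 at an unadjusted p under 0.05, of them 3 among the 29). The 29 genes had a median log2 change of -0.13, with 8 above 0 and 21 below, against 0.01 over all genes tested. Arrays of day 2 lay below both arrays of day 0 for 8 genes (27.6%) and above them for 2 (6.9%), against 19.5% and 23.4% of all genes tested. The changes farthest below 0 were those of F11r (-0.59 ± 0.29), Spint2 (-0.57 ± 0.24), Krt19 (-0.50 ± 0.24), Llgl2 (-0.47 ± 0.17) and Spint1 (-0.43 ± 0.21), and Marveld3 was at 0.72 ± 0.20. Their adjusted p-values ran from 0.248 to 0.423. By clone, F11r was lower in clone 5 (-0.09 in clone 7, -1.09 in clone 5) and Spint2 in clone 7 (-1.03 in clone 7, -0.12 in clone 5).

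On day 5 against day 2 Cdh3 rose by 1.38 ± 0.17 (SE) on the log2 scale, 2.61-fold (limma adjusted p = 0.0256). Its day 2 readings lay near the detection limit. It was 1 of 29 genes to rise and 0 fell, where 0.79% of all genes tested passed, with 0.59% up and 0.2% down. The call was lost without clone in the model (adjusted p = 0.0709), without either day 2 array (0.147 and 0.289) and without the day 5 array of clone 7 (0.055). The 29 genes had a median log2 change of 0.27, with 20 above 0 and 9 below, against -0.02 over all genes tested. Both arrays of day 5 lay above both of day 2 for 14 genes (48.3%), against 21.7% of all genes tested, and below for 4 (13.8%), against 25%. This comparison shares the day 2 arrays with the one before it, so a gene read low on day 2 tends to be positive here.

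Of the 14 genes, 6 were of tight junctions besides Cgn: Cldn3 (0.60 ± 0.20), Cldn4 (0.68 ± 0.22), Cldn6 (0.86 ± 0.19), Cldn7 (0.72 ± 0.17), Tjp3 (0.68 ± 0.20) and F11r (0.85 ± 0.29), each higher in both clones and with adjusted p-values from 0.0899 to 0.194. Cgn was at 0.82 ± 0.19, Krt19 at 0.94 ± 0.24, Spint2 at 0.89 ± 0.24, Pkp2 at 0.77 ± 0.19, Ap1m2 at 0.67 ± 0.31, Spint1 at 0.62 ± 0.21 and St14 at 0.53 ± 0.28, and none passed. Without the day 5 array of clone 5 Krt19 passed at 1.27 (limma adjusted p = 0.0326) and Cldn6 at 1.07 (0.0445), and Krt19 also passed without either day 0 array (0.049). The 4 genes with lower arrays on day 5 were Pkp3 (-0.93 ± 0.31), Rab25 (-0.47 ± 0.19), Llgl2 (-0.28 ± 0.17) and Ctnna1 (-0.03 ± 0.16), and these were also the 4 that lay lower on day 5 than on day 0.

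**Figure D4:**
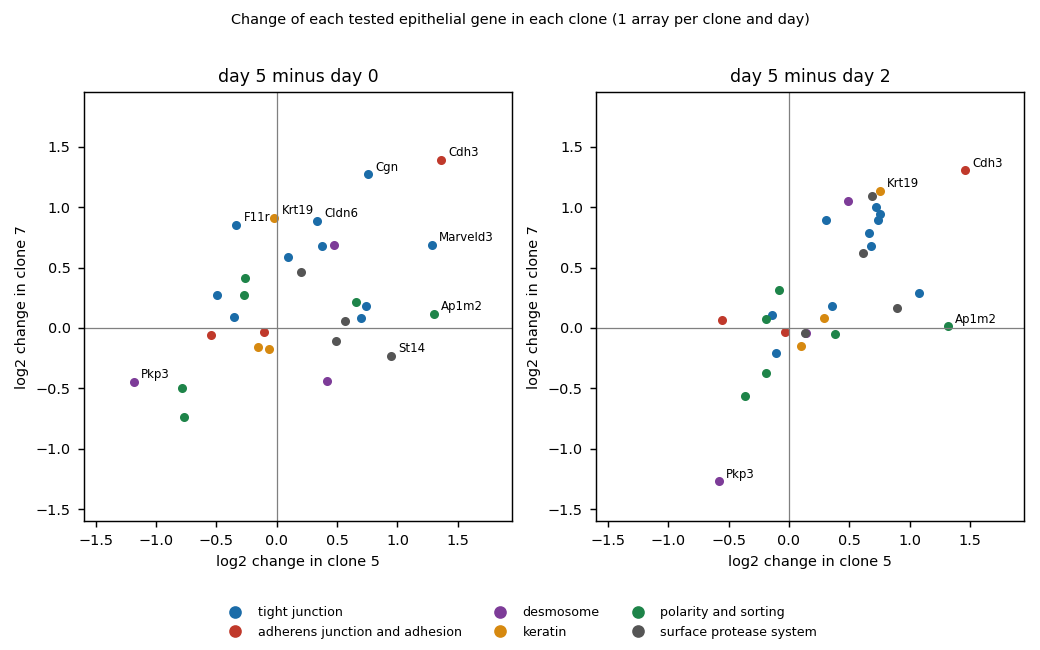
Log2 change in clone 7 (y axis) against that in clone 5 (x axis) of the 29 tested epithelial genes, for day 5 against day 0 and day 5 against day 2, with a single array behind each value of a day. Cdh3 lies at the upper right in both panels, Ap1m2 lies at 1.30 for clone 5 and at 0.12 for clone 7 on day 5 against day 0, and Pkp3 lies below 0 in both clones.

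Between the clones, averaged over days, none of the 29 genes passed limma's test for clone 7 against clone 5 (0% of all genes, 1356 at an unadjusted p under 0.05, of them 3 among the 29), and the median log2 difference was 0.09, with 17 above 0. Prss8 averaged 6.29 ± 0.28 in clone 7 and 5.45 ± 0.10 in clone 5 (SD over 3 days), a difference of 0.84 ± 0.15 (SE, limma adjusted p = 0.138). Cldn4 averaged 10.21 ± 0.15 in clone 7 and 9.50 ± 0.54 in clone 5, a difference of 0.71 ± 0.18 (adjusted p = 0.229). The Prss8 values of clone 7 lay above every value of clone 5, and those of Cldn4 overlapped.

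Other genes of the same structures were read from fixed lists. Those named here that passed on day 5 against day 0 fell, apart from Esrp1, which is a regulator. Over all genes tested 4.26% passed in this comparison, with 2.46% up and 1.8% down. Of 6 measured genes of other keratins and desmosome proteins, Krt42 fell by 1.88 ± 0.22 (SE, limma adjusted p = 0.0106) and Krt17 by 1.03 ± 0.16 (adjusted p = 0.023), both keratin genes. Krt42 read 9.56 (clone 7) and 10.03 (clone 5) on day 0, 9.21 (clone 7) and 8.97 (clone 5) on day 2, and 8.03 (clone 7) and 7.81 (clone 5) on day 5. It was lower on each later day in both clones, and its other 2 probes were at -1.96 and -1.93. Of 12 other polarity and sorting genes Dlg5, of the discs large family, fell by 0.85 ± 0.17 (adjusted p = 0.0393) and Ap1m1, the widely expressed counterpart of Ap1m2, by 0.96 ± 0.19 (adjusted p = 0.0372). Of 10 other adherens junction genes none passed, and of 11 measured epithelial regulators the splicing regulator gene Esrp1 rose by 1.49 ± 0.23 (adjusted p = 0.0223). On day 5 against day 2 and on day 2 against day 0 no gene of these lists passed, with Krt42 (-1.17 ± 0.22, adjusted p = 0.0639) and Cdh1 (0.98 ± 0.19, adjusted p = 0.069) nearest to the threshold on day 5 against day 2.

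Markers of mesenchymal cells and feeder fibroblasts are set beside the epithelial values. Of 16 such markers 5 were detected, Vim, Thy1, Col5a1, Fn1 and Cdh2, with a summed linear signal of 821 to 1478 on day 0, 346 to 786 on day 2 and 653 to 816 on day 5. Col1a1, Col1a2, Col3a1, Pdgfra and Pdgfrb were not detected on both arrays of any day. Vim, which encodes vimentin, fell by 1.40 on day 5 against day 0 (limma adjusted p = 0.045). It was the only 1 of the 5 to pass, where 1.8% of all genes tested fell. Of the 5 markers, 3 lay below 0 and 2 above on day 5 against day 0. All 5 lay below 0 on day 2 against day 0, and 4 lay above 0 on day 5 against day 2. The part of these cells in the epithelial values was not tested.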

How the data were processed

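Gene expression was measured on 6 Illumina bead arrays of mouse iPS cells. Per the file headers, the deposited probe table holds for each probe a bead intensity without normalisation or background correction and a detection p-value. The series values, log2 signals normalised by the authors, were an alternative. The authors' deposited fold change table gives log2 changes with an unadjusted p-value. They were made with software not given in the sources used here. Symbols were updated with RefSeq (GRCm38.p6), which matched 35777 probes, 8037 of them by a synonym.

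Background was taken off with limma 3.58.1 (R 4.3.3) by a normexp fit that infers the negative controls from detection p-values, with an offset of 16 added, and log2 values were quantile normalised. The offset shrinks changes of dim probes. The probe of highest mean stood for a gene. A model with day and clone was fitted over all 6 arrays (lmFit and eBayes, 2 residual and 5.24 prior degrees of freedom), with Benjamini-Hochberg adjustment at 0.05 over 12030 genes. Clone is the pairing of the days, since each clone is 1 cell line. Deviations from the day means correlated across genes at 0.36 (days 0 and 2), -0.07 (days 0 and 5) and 0.34 (days 2 and 5). The labels name 2 clones a day and no repeat cultures, so p-values measure only the spread between these arrays, whose number limits the precision. The fit was tested on simulated data.

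All 36 genes are named. Values on all arrays are given for those of the 36 that passed and for the 3 of each role with the largest change between days, and for F11r and Krt42, which were chosen after their values were seen. Of other genes, Cdh1, Zeb1, Nacc1 and genes of the fixed lists that passed are named, except 1 result that is not reported here. The genes and lists were chosen with earlier results of these data known.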

Additional observations from a re-analysis of the deposited data

Results flagged for a closer look

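Pkp3, the plakophilin 3 gene, moved in opposite directions in the clones on day 2 against day 0, by 0.82 in clone 7 and by -0.60 in clone 5 on the log2 scale, a difference of 1.42. Each clone had 1 array per day, and the difference was not tested. On day 5 against day 0 it lay below 0 in both clones, at -0.45 in clone 7 and -1.18 in clone 5. No other gene of the 36 had clones that moved apart by at least 0.5 each way between days.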

How the results depend on the processing

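The median change of the tested genes kept its sign under the 19 alternatives of each comparison of days. Several of these could not move it: those on the block, shrinkage or threshold, and those that dropped arrays of the day not compared. The median ran from 0.09 to 0.40 for day 5 against day 0 and from -0.19 to -0.05 for day 2 against day 0. For day 5 against day 2 it ran from 0.12 to 0.43. For clone 7 against clone 5 it ran from -0.02 (without either day 5 array) to 0.15. On day 5 against day 0, 3 of the 36 genes passed in the fit reported. The count was 0 without background correction, with the series values, without the detection filter and with detection at p under 0.01 on all 6 arrays, and 1 with the arrays of the 2 days alone. Without the replicate block (clone) it was 2, since Marveld3 missed the threshold. Leaving out 1 array gave 0 to 2. On day 5 against day 2 the reported count was 1. It was 0 without the replicate block, without background correction, with an offset of 50, with the series values, without the detection filter, with strict detection and with the mean of probes, 3 at a threshold of 0.1 and 2 with the arrays of the 2 days alone. Leaving out 1 array gave 0 to 3. Strict detection left 20 of the genes and removed Cdh3, Cgn and Marveld3, and the cause of the other losses was not tested. Day 2 against day 0 and clone 7 against clone 5 gave 0 genes of the 36 by limma under every alternative run. The block changed no call of the 36 genes beyond Marveld3 on day 5 against day 0 and Cdh3 on day 5 against day 2. No value that passed the test changed sign.

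Over all genes, 512 passed for day 5 against day 0, against 208 without the replicate block, 318 with clone as a random block, 127 without background correction, 301 with strict detection, 1023 at a threshold of 0.1, 138 without the day 0 array of clone 7 and 250 without the day 5 array of clone 7. Limma called 0 genes in the series values and 0 without the detection filter, where 2094 and 3742 had an unadjusted p under 0.05. For day 5 against day 2, 95 passed, against 13 without the replicate block, 19 with a random block, 1 without background correction, 29 with an offset of 50, 38 with strict detection, 61 with the mean of probes, 240 with trended shrinkage, 437 at a threshold of 0.1, 329 without either day 0 array or both, 0 and 2 without the day 2 array of clone 7 and of clone 5, and 41 and 516 without the day 5 array of clone 7 and of clone 5. It was 0 with the series values (1701) and without the detection filter (3293). Day 2 against day 0 called 0 genes, against 3 with strict detection, trended shrinkage or a threshold of 0.1 and 17 without day 5 arrays. Clone 7 against clone 5 called 0, against 1 with median scaling, 15 with trended shrinkage, 12 at a threshold of 0.1 and 79 without either day 5 array. Cdh3 on days 0 and 2 and Marveld3 on day 0 were near the detection limit.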
